A study of Homo sapiens with 6 samples.

Results

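Expression of 9 interferon-induced genes was followed in PC9 cells with knockdown of the RNA-binding protein RBM10, namely IFI44, IFI44L, IFI27, IFI6, XAF1, EPSTI1, CMPK2, DDX60 and IFI35. They were chosen by name, 9 of the 16306 genes in the deposited table, with earlier results of the same comparison known. The read counts of the 3 control against the 3 knockdown libraries were what this choice rested on. Their fold changes are therefore given as a description, without a test. All 9 passed the filter on low counts that kept 12620 genes.

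PC9 is a human lung adenocarcinoma line that carries an EGFR exon deletion. The study sequenced RNA of 3 control samples (sh-NC, a negative control shRNA) and of 3 knockdown samples (shRBM10), in which an shRNA against RBM10 removes RBM10 mRNA by RNA interference. All 6 share the PC9 background, and the labels name no drug or interferon treatment. The sources used here do not say which RBM10 shRNA was used or whether the samples of a group came from separate cultures, so p-values measure only the spread between these samples, which may be technical. Retinas are named in the protocol text although the labels give PC9 as the source, and of the 2 library kits listed there, 1 of them directional, neither is assigned to a library. The shRBM10 libraries are called A, B and C. Only A (replicate 1) matches a sample title, while B and C were placed in the group by the start of their column names, so whether all 3 carry the same shRNA is not known.

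Type I interferons (alpha and beta) and type III interferons (lambda) bind receptors at the cell surface and activate the kinases JAK1 and TYK2, which act through STAT2 and IRF9 within a transcription factor that binds a short element, the interferon-stimulated response element (ISRE), in the promoters of its targets. The induced genes code for antiviral proteins, RNA sensors, regulators of cell death and the signal transducers themselves, and many tumor cells express a share of them without added interferon.

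The 9 genes belong to several arms of this response. IFI27 and IFI6 code for small hydrophobic proteins of the same family that sit in membranes of mitochondria and the endoplasmic reticulum. IFI44 and IFI44L are paralogs whose genes lie side by side. DDX60 is a helicase-like antiviral protein, and CMPK2 is a mitochondrial kinase of pyrimidine nucleotides. XAF1 binds the caspase inhibitor XIAP and favors apoptosis. IFI35 is a leucine zipper protein that pairs with NMI, and EPSTI1 was first described in epithelial cells grown with stromal cells.

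Of the 9 genes 6 carry ISRE letters in their promoters, and these windows are shown here because the ISRE is the element through which interferon acts on such genes. In RefSeq promoter windows (250 bases before to 50 bases after each start site, GRCh38.p14, a window found for all 9 genes), the ISRE was searched on both strands as 10 letters, GAAA, any 2 letters and GAAA again. They were found in IFI6, IFI27, IFI44L, IFI44, DDX60 and EPSTI1. The same letters occur in 3.57% of all 35116 windows and in 3.80% of the 10339 tested genes that have a window. The 200 bases before the start site are printed 5′ to 3′ on the strand of the gene, with each ISRE match in capitals. They are chr1:27672193-27672392 on the minus strand for IFI6, chr14:94110536-94110735 on the plus strand for IFI27, chr1:78620248-78620447 on the plus strand for IFI44L, chr1:78649589-78649788 on the plus strand for IFI44, chr4:168318753-168318952 on the minus strand for DDX60 and chr13:42992242-42992441 on the minus strand for EPSTI1.
IFI6: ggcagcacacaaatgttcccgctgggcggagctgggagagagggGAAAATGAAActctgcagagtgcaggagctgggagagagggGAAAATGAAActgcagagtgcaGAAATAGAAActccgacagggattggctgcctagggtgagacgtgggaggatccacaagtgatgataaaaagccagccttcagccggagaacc
IFI27: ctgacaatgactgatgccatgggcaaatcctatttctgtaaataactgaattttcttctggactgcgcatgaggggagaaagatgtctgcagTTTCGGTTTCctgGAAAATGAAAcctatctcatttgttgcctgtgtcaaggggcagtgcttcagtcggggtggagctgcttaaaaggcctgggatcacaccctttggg
IFI44L: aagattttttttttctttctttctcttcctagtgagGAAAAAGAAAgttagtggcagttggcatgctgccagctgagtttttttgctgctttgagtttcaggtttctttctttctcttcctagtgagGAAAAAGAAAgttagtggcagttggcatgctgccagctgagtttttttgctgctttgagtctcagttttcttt
IFI44: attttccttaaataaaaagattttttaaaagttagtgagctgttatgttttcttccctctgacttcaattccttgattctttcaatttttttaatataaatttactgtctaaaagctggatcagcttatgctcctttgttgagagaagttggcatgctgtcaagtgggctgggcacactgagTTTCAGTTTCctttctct
DDX60: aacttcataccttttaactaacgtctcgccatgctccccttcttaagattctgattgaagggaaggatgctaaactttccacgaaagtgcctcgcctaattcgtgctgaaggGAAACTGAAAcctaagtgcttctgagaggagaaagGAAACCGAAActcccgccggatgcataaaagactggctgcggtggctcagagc
EPSTI1: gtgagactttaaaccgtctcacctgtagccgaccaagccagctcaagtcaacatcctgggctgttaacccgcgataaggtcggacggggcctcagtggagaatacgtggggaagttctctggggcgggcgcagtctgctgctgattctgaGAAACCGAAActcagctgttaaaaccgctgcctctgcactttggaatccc

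The ISRE letters stood at different places and in different numbers. IFI6 held 3 matches, which began 156, 115 and 93 bases before the start site. A run of 29 letters that contains the first of them recurred 41 bases downstream and contains the second. IFI44L held 2 matches, and an 85-letter run around the first recurred 91 bases downstream around the second. IFI27 held 2 matches in opposite orientation between 108 and 86 bases before the start site, and DDX60 held 2 in the same orientation. IFI44 and EPSTI1 held 1 each, in IFI44 on the strand opposite to the gene and 9 to 18 bases before the start site. These places are for the first window of each gene. IFI44 and IFI27 have 2 windows each, and the distance depends on the annotated start site. In the second window the match of IFI44 lay 51 to 60 bases and the 2 of IFI27 lay between 187 and 165 bases before the start site.

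**Figure D1:**
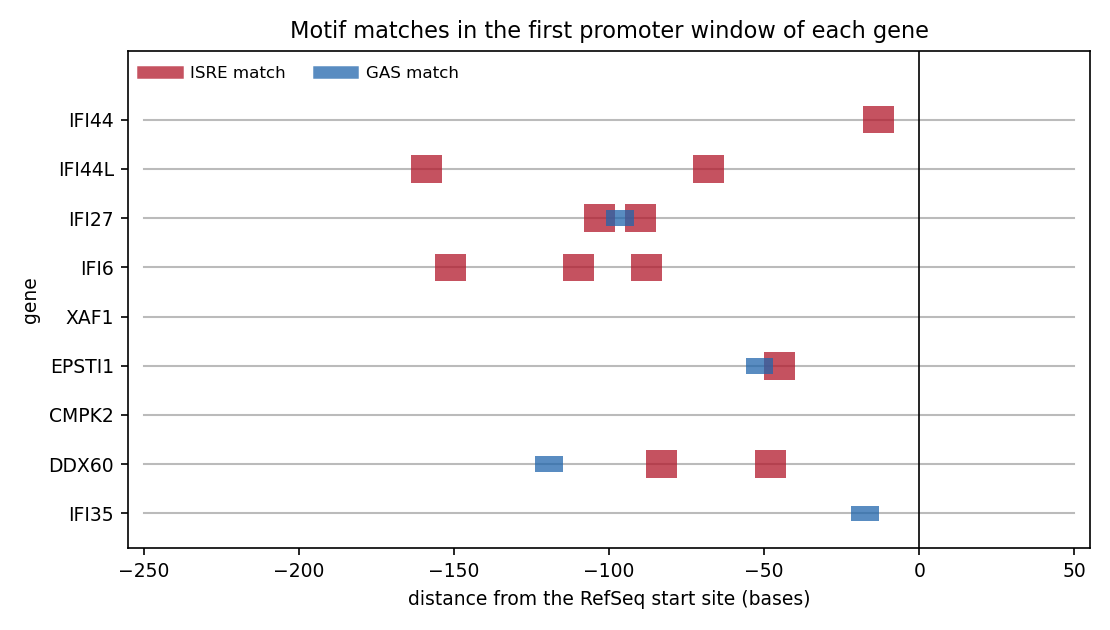
Motif matches in the first RefSeq promoter window of each of the 9 genes, with distance from the start site in bases on the horizontal axis and the window drawn as a grey line. Red boxes are ISRE letters on either strand and blue boxes are GAS letters, and IFI6 has the most ISRE matches with 3 while XAF1, CMPK2 and IFI35 have none.

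A stricter form of 12 letters, in which CT follows the second GAAA, was present in 5 of the 9 genes, all of the above except IFI44L, and in 0.273% of all windows. The 9-letter GAS element, TTC, any 3 letters and GAA, which is known from the response to interferon-gamma and reads the same on both strands, was found in IFI27, EPSTI1, DDX60 and IFI35 and in 7.66% of all windows. In IFI27 and EPSTI1 the GAS letters overlap ISRE letters. DDX60 and EPSTI1 shared a run of 13 letters that includes an ISRE match of each, and IFI44 and IFI44L shared a run of 13 letters outside theirs. The windows of XAF1 (2 windows), CMPK2 (3 windows) and IFI35 (1 window) did not contain these ISRE letters, which says only that the letters are not in these windows. A match is a description of letters and no evidence that a factor was bound in these cells.

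RBM10 itself, the target of the shRNA, had counts of 1578, 864 and 1628 in the sh-NC libraries (replicates 1 to 3) and of 523, 537 and 700 in shRBM10 (libraries A to C). After TMM normalization the groups did not overlap, and the level was 74.1 ± 8.45 CPM (counts scaled to library size, SD, n = 3) in sh-NC and 31.3 ± 4.65 CPM (SD, n = 3) in shRBM10. The log2 fold change was -1.24 with a standard error of 0.23 (edgeR quasi-likelihood test, adjusted p = 0.10). In an exact two-sided permutation test p was 0.1, the smallest value that 3 against 3 libraries can give. Without sh-NC replicate 2 the log2 fold change was -1.42 with an adjusted p of 0.0487, and the adjusted p ranged from 0.000286 to 0.454 over all alternatives.

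The libraries held between 16606390 and 18864243 counts on genes. sh-NC replicate 2 stood apart, with a median of 181 counts per detected gene against 290 to 334 in the other 5 libraries and a TMM factor of 0.738 against 1.03 to 1.08. The 7 epithelial markers (EPCAM, KRT8, KRT18, KRT19, KRT7, CDH1 and EGFR) summed to between 30670 and 55622 CPM in sh-NC and between 24789 and 36061 CPM in shRBM10. In sh-NC replicate 2 the keratins had more counts than in sh-NC replicates 1 and 3, while EPCAM, CDH1 and EGFR had fewer. EGFR had 1890 counts there, against 13592 and 14601 in sh-NC replicates 1 and 3. The 4 leukocyte markers in the table summed to 43.7 to 53.7 CPM in sh-NC and 63.1 to 91.2 CPM in shRBM10, the 4 fibroblast markers to 3.20 to 6.81 and 5.92 to 11.1 CPM, the 4 endothelial markers to 5.44 to 10.2 and 2.68 to 3.75 CPM, and the 2 astrocyte markers to at most 0.0494 CPM in any library. The leukocyte sum was higher in shRBM10 and came almost only from CSF1R (563 to 1710 counts per library), while PTPRC had 0 to 7 counts and LYZ 0 to 6. The fibroblast sums overlapped between the groups and came mostly from COL1A1, with COL1A2 and COL3A1 at 0 to 2 counts. The part of CSF1R and COL1A1 in the result was not tested. In bulk RNA, more cells that express a gene and more RNA per cell cannot be told apart.

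All 9 genes had a fold change above 0 in shRBM10. The median log2 fold change was 1.76, against 0.03 over all 12620 genes tested, of which 51.6% lay above 0. In 7 of the 9 genes every shRBM10 library lay above every sh-NC library, which held for 13.8% of all genes. With library size only, and after GC correction, this count was 9, and with upper quartile normalization it was 8. The share of all genes was not counted under these settings, so these counts have no background beside them. By edgeR 0 of the 9 passed an adjusted p under 0.05 with an absolute log2 fold change over 1, which only 2 genes (0.0158%) passed in all. Without adjustment (p under 0.05, same limit on the fold change) 7 of the 9 were past the limit and higher, beside 10.1% of all genes. DESeq2, with an adjusted p under 0.05, called the same number, 7 of 9, beside 3.73% of the genes to which it gave an adjusted p. Since the genes were chosen on this comparison, nothing is read from these counts.

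The 9 genes started from very different levels. Per length, in the authors' TPM, a unit scaled to transcript length and to the library's total, IFI6 was the highest in sh-NC with 279 ± 22.2 TPM (SD, n = 3). IFI27 followed with 89.8 ± 4.29 TPM, IFI35 with 49.0 ± 5.58 TPM and IFI44 with 6.98 ± 2.62 TPM, and the ranges of these 4 did not overlap. Below them IFI44L had 2.63 ± 0.46 TPM, DDX60 1.82 ± 1.25 TPM, EPSTI1 0.93 ± 0.23 TPM, XAF1 0.91 ± 0.58 TPM and CMPK2 0.50 ± 0.23 TPM (SD, n = 3 each). In this lower part each gene overlapped the range of the next, so neighbors in the order are not resolved, although the lowest IFI44L value (2.14 TPM) lay above all values of EPSTI1, XAF1 and CMPK2.

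On the TPM scale IFI6 had 298, 255 and 285 TPM in sh-NC replicates 1 to 3 and 485 TPM in library A, and the authors' mean over shRBM10 was 588 TPM. The authors' mean was 281 TPM for IFI27, 66.8 TPM for IFI35, 32.3 TPM for IFI44, 12.1 TPM for IFI44L, 7.49 TPM for DDX60, 4.99 TPM for XAF1, 3.89 TPM for EPSTI1 and 1.86 TPM for CMPK2. By these means the order was the same except that XAF1 stood above EPSTI1. In library A each of the 9 genes exceeded its highest sh-NC value in TPM, as did 49.2% of all genes tested.

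**Figure D2:**
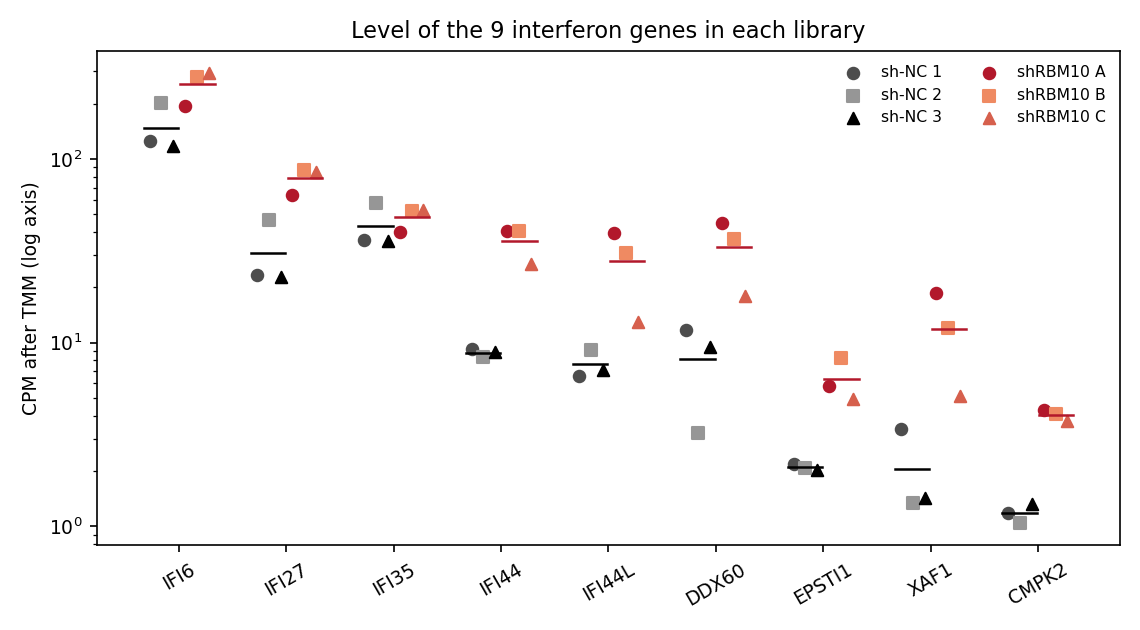
CPM after TMM normalization (log axis) of the 9 genes in each of the 6 libraries, with horizontal lines at the mean of each group and genes ordered by their TPM in sh-NC. Black and grey points (sh-NC) lie apart from red and orange points (shRBM10) in 7 genes, and overlap in IFI6 and IFI35.

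The small membrane proteins were the most abundant. IFI27 had 23.4, 46.7 and 22.8 CPM in sh-NC replicates 1 to 3 and 63.4, 87.5 and 85.0 CPM in libraries A to C. All 3 shRBM10 values were above all sh-NC values, with sh-NC replicate 2 nearest to them. The log2 fold change was 1.35 (SE 0.32), and leaving out any 1 library kept it between 1.17 and 1.69. Its relative IFI6, also known as G1P3 and described as protecting cells from apoptosis, had 125, 202 and 118 CPM in sh-NC and 195, 281 and 293 CPM in shRBM10. On this scale sh-NC replicate 2 exceeded library A, so the groups overlapped, whereas in TPM it was the lowest control. The log2 fold change was 0.79 (SE 0.29). Without sh-NC replicate 2 the groups separated and the log2 fold change was 1.00. IFI6 (chr1:27666061-27672218, minus strand) overlaps an annotated antisense RNA, AL445490.1, whose reads could not be told from its own if the counting ignored strand.

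The genes of the 2 relatives of IFI27, IFI27L1 and IFI27L2, lie on either side of it on chromosome 14 (IFI27 spans chr14:94104836-94116698 on the plus strand in GENCODE 29 on GRCh38, and the gaps are 989 and 11080 bases). IFI27L1 had 127, 168 and 121 counts in the control libraries and 98, 135 and 154 in the knockdown, a log2 fold change of -0.26 (SE 0.36). IFI27L2 had 43, 54 and 32 counts in the control libraries and 50, 51 and 56 in the knockdown, a log2 fold change of 0.14 (SE 0.38). In both the groups overlapped and neither passed the test (edgeR adjusted p = 0.650 and 0.829). Of these 3 neighbors IFI27 thus had the highest fold change. The difference between them was not tested.

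IFI44 and IFI44L lie in tandem on chromosome 1 (chr1:78649796-78664078 and chr1:78619922-78646145, plus strand), 3650 bases apart. IFI44 had 9.23, 8.35 and 8.94 CPM in sh-NC and 40.8, 40.4 and 26.9 CPM in shRBM10. On this scale the sh-NC values lay close together, and the lowest shRBM10 value was far above them. In TPM they were less even, with 8.63, 3.96 and 8.35 TPM in sh-NC replicates 1 to 3. The mean was 4.07-fold higher, and the log2 fold change was 2.02 (SE 0.27). IFI44L, a gene often used in blood as a marker of the interferon response, had 6.61, 9.17 and 7.07 CPM in sh-NC and 39.8, 30.6 and 13.0 CPM in shRBM10. The groups did not overlap, but library C lay much nearer to sh-NC than A and B did. Its log2 fold change was 1.87 (SE 0.41), and 2.17 without library C.

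DDX60 (chr4:168216293-168318807, minus strand), an interferon-induced helicase-like protein linked to RIG-I signaling and viral RNA decay, had 11.7, 3.20 and 9.48 CPM in sh-NC and 44.7, 36.8 and 17.9 CPM in shRBM10. The groups did not overlap. The spread within each group was wide, with sh-NC replicate 2 the lowest control and library C the lowest knockdown library. The log2 fold change was 2.01 (SE 0.49), and 1.55 without sh-NC replicate 2. Its neighbor and paralog DDX60L, 37927 bases away on the same strand, had 389, 291 and 359 counts in the control libraries and 554, 550 and 409 in the knockdown, with a log2 fold change of 0.47 (SE 0.26, edgeR adjusted p = 0.268). DDX60 and DDX60L are alike in sequence, so that reads could be split between them by the authors' counting. The promoter of DDX60L holds 2 ISRE matches of its own, as that of DDX60 does.

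On the CPM scale CMPK2 had the steadiest values, 1.18, 1.04 and 1.33 CPM in sh-NC and 4.30, 4.07 and 3.76 CPM in shRBM10. In TPM the sh-NC values were less even, with 0.56, 0.25 and 0.69 TPM in replicates 1 to 3. The groups were well apart although the gene had only 14 to 78 counts per library. The log2 fold change was 1.76 (SE 0.30), within 1.60 to 1.85 when any 1 library was left out. CMPK2 overlaps the 5′ part of RSAD2 on the opposite strand over 830 bases (chr2:6840570-6866635, minus strand, for CMPK2). RSAD2 codes for viperin, which turns CTP into a chain-terminating nucleotide, while CMPK2 supplies the pyrimidine nucleotides. RSAD2 had 7, 10 and 10 counts in the control libraries and 123, 90 and 36 in the knockdown, a log2 fold change of 3.11 (SE 0.54, edgeR adjusted p = 0.0898, DESeq2 adjusted p = 3.38e-05). Whether the counting used strand is not stated, so reads of the shared bases cannot be assigned with certainty. CMPK1, the cytosolic kinase of the same reaction and not a classic interferon target, had a log2 fold change of 0.44 (SE 0.22, edgeR adjusted p = 0.238).

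XAF1 (chr17:6755447-6775647, plus strand, overlapped by PRAL on the other strand), the antagonist of XIAP, had the highest fold change of the 9 and was among the least abundant. It had 3.41, 1.34 and 1.42 CPM in sh-NC and 18.7, 12.05 and 5.12 CPM in shRBM10. The groups did not overlap, and within shRBM10 the values spanned more than those of any other of the 9 genes on the log scale. The log2 fold change was 2.52 (SE 0.54), the 16th highest of all 12620 genes, and it ranged from 2.04 to 3.10 when 1 library was left out. Behind it stood only 18 to 69 counts per library in sh-NC and 98 to 334 in shRBM10.

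The partners of XAF1 were described from a list of 12 inhibitors of apoptosis, their antagonists and caspases. Of these, 3 were past the unadjusted limit and higher and 1 was past it and lower, beside 10.1% and 1.53% of all genes. In edgeR 0 passed the adjusted limit. DESeq2 called 0 of them higher, beside 3.73% of the genes to which it gave an adjusted p, and called BIRC5 lower. XIAP, which blocks caspases 3, 7 and 9, had 671, 232 and 736 counts in the control libraries and 1651, 1114 and 625 in the knockdown. Its groups overlapped, with a log2 fold change of 1.08 (SE 0.40, edgeR adjusted p = 0.173). NAIP and BIRC2 (cIAP1) had log2 fold changes of 1.42 (SE 0.61, edgeR adjusted p = 0.194) and 1.22 (SE 0.42, adjusted p = 0.165). BIRC5, the mitotic protein survivin, was lower in each shRBM10 library than in each sh-NC library, as were 16.2% of all genes. Its log2 fold change was -1.17 (SE 0.27, edgeR adjusted p = 0.133, DESeq2 adjusted p = 0.0118). After correction for GC content 0 of the 12 were past the unadjusted limit and higher, beside 2.97% of all genes. The median of the list went from 0.26 to 0.03.

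EPSTI1 (chr13:42886388-42992271, minus strand, with the pseudogene ZDHHC4P1 within it on the other strand) had 2.17, 2.09 and 2.01 CPM in sh-NC and 5.81, 8.24 and 4.91 CPM in shRBM10. On this scale the sh-NC values were nearly the same and all shRBM10 values lay above them, with a log2 fold change of 1.59 (SE 0.32). In TPM the sh-NC values of EPSTI1 were 1.02, 0.67 and 1.10 TPM. IFI35 (chr17:43006725-43014456, plus strand) differed least. It had 36.2, 57.4 and 35.8 CPM in sh-NC and 40.2, 52.0 and 53.0 CPM in shRBM10, with sh-NC replicate 2 the highest of all 6 libraries on this scale. In TPM the same library was the lowest control, with 52.1, 42.6 and 52.3 TPM in sh-NC replicates 1 to 3 and 59.5 TPM in library A. Its log2 fold change was 0.17 (SE 0.27), which is less than 1 standard error from 0, and it was 0.35 without sh-NC replicate 2. NMI, with which IFI35 forms a complex, had 221, 172 and 272 counts in the control libraries and 458, 496 and 321 in the knockdown, with groups that did not overlap after normalization and a log2 fold change of 0.88 (SE 0.28, edgeR adjusted p = 0.156).

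**Figure D3:**
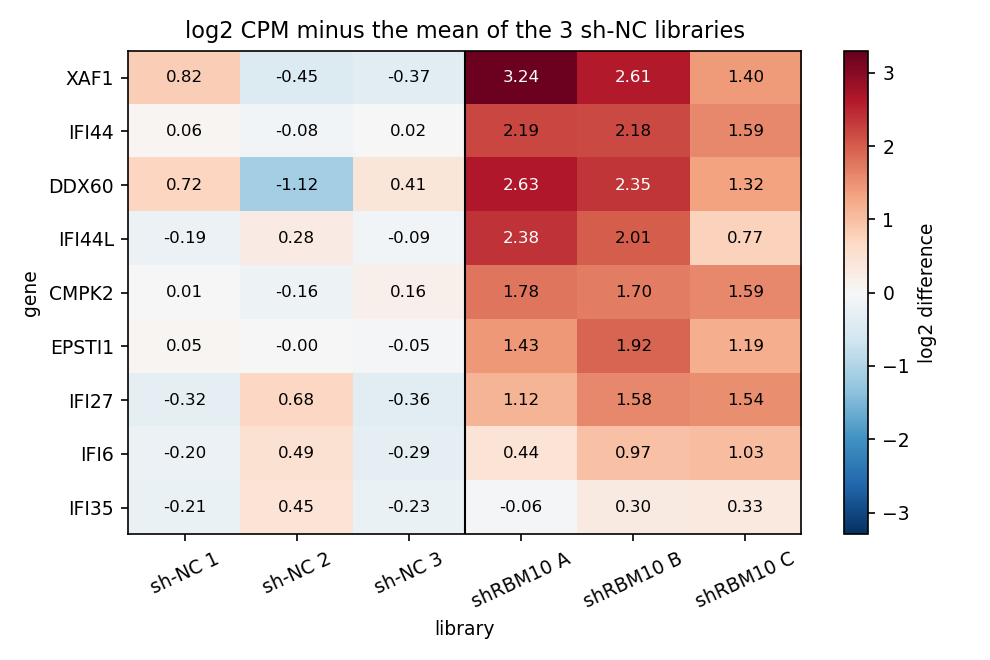
log2 CPM (prior count of 2) of each of the 9 genes in each library minus the mean of the 3 sh-NC libraries, with genes ordered by fold change and sh-NC to the left of the line. The shRBM10 columns run from -0.06 (IFI35, library A) to 3.24 (XAF1, library A). XAF1, DDX60, IFI44L, IFI44, EPSTI1 and CMPK2 are lower in library C than in A and B.

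The 9 genes were divided by the sign of library C against the mean of libraries A and B. In library C, 6 of them (XAF1, IFI44L, DDX60, IFI44, EPSTI1 and CMPK2) were lower than the mean of libraries A and B, from -1.53 for XAF1 to -0.15 for CMPK2 on the log2 scale. The other 3, IFI6, IFI27 and IFI35, were higher in C than that mean by 0.32, 0.19 and 0.21. These differences were smaller than the pooled SD between replicates of each gene (0.38, 0.45 and 0.32). In all 3 library A was the lowest of the shRBM10 libraries, and IFI27 was lower in C (1.54) than in B (1.58). These 3 are also the most abundant. The same 3 were higher in sh-NC replicate 2 than in the mean of sh-NC replicates 1 and 3, by 0.74, 1.01 and 0.67, as was IFI44L by 0.42, while DDX60 and XAF1 differed there by -1.69 and -0.68. This direction depends on the scaling, since in TPM sh-NC replicate 2 had the lowest sh-NC value for IFI6 and IFI35 and the highest for IFI27. Over all genes the median of these differences was 0.03 in library C and 0.01 in sh-NC replicate 2. The median of the 9 genes against the sh-NC mean was 1.78 in library A, 1.92 in B and 1.32 in C.

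GC content was set beside this division. It is the median over the annotated transcripts of a gene, not over those that carried the counts. The 6 genes with lower values in library C had 37.6% to 54.5% GC, while IFI6, IFI27 and IFI35 had 56.2%, 57.4% and 57.8% GC. Among the 6, XAF1 had the highest GC content and the largest drop. The division is by sign only, and the difference of CMPK2 (-0.15) was close to its pooled SD between replicates (0.13). When the trend of each library with GC was removed, the log2 fold changes of the 4 genes under 50% GC became smaller. IFI44 went to 1.37, IFI44L to 1.09, DDX60 to 1.37 and EPSTI1 to 1.29. Those of the 5 genes above 50% GC became larger, to 2.76 for XAF1, 1.89 for CMPK2, 1.65 for IFI27, 1.04 for IFI6 and 0.47 for IFI35. All 9 stayed above 0, and the median went from 1.76 to 1.37. At the unadjusted limit 8 of the 9 were then higher, beside 2.97% of all genes, where it had been 10.1% without the correction. Nothing is read from this count either, since the genes were chosen on this comparison. The part of GC content in the result was not tested beyond this.

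**Figure D4:**
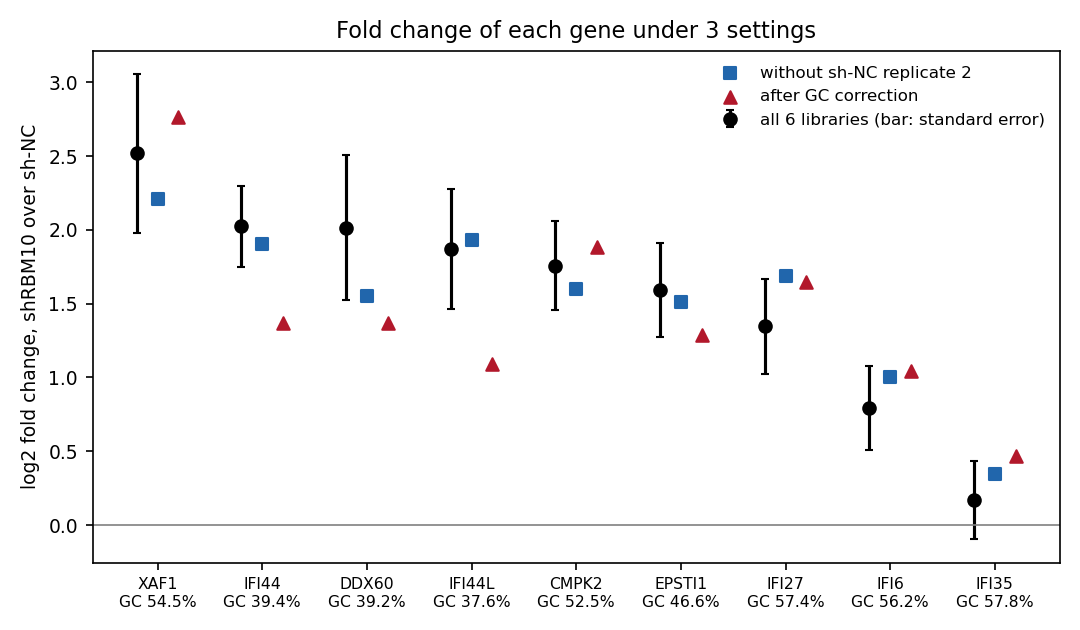
log2 fold change of shRBM10 over sh-NC for each of the 9 genes, with the median GC content of its annotated transcripts under each name. Black points are the fit to all 6 libraries with bars of 1 standard error, blue squares leave out sh-NC replicate 2 and red triangles follow correction for GC content, and all values lie above 0 with IFI44, IFI44L and DDX60 the genes that the GC correction lowers most.

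The transcript table shows which RefSeq transcripts carried these counts. IFI44 and CMPK2 rested on 1 transcript each, NM_006417 with 96.7% ± 2.32 (SD, n = 3) of the gene's estimated counts in sh-NC and 96.7% ± 1.47 in shRBM10, and NM_207315 with 98.5% ± 2.63 and 97.6% ± 2.18. DDX60 rested mainly on NM_017631, with 88.0% ± 6.16 in sh-NC and 90.7% ± 4.06 in shRBM10. IFI6 was divided between NM_002038 with 78.0% ± 1.12 and 79.9% ± 0.61, and shorter variants. The shares of these transcripts thus moved little between the groups while the gene totals differed. IFI27 was divided mainly between NM_001288956 with 51.9% ± 5.75 in sh-NC and 55.1% ± 0.73 in shRBM10 and NM_001130080 with 35.9% ± 4.70 and 33.6% ± 0.63. In IFI35 NM_005533 held 67.0% ± 3.90 in sh-NC and 69.4% ± 1.92 in shRBM10, and in IFI44L NM_006820 held 54.1% ± 5.77 and 56.6% ± 3.79. EPSTI1 and XAF1 were less even. NM_033255 held 64.5% ± 4.84 of EPSTI1 in sh-NC and 52.1% ± 5.71 in shRBM10, and XM_006719896 10.7% ± 11.1 and 25.1% ± 7.04, on 28 to 158 counts per library. For XAF1 the estimate of NM_017523 was 26.1, 0 and 25 counts in sh-NC against 202, 118 and 54.4 in shRBM10. With so few sh-NC counts the division of XAF1 between its transcripts is not resolved.

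The rest of the interferon system was described from 6 further lists and the list of paralogs, neighbors and partners already used, all written with earlier results of these data known. In these lists 0 genes passed the adjusted limit in edgeR, and the counts refer to the unadjusted limit, which 10.1% of all genes passed upward and 1.53% downward. Of the 44 other induced effectors, 42 had a fold change above 0, 19 were past the limit and higher and 0 past it and lower, and the median log2 fold change was 0.82. DESeq2 called 17 of them higher, and 5 of the interferon-gamma leaning targets, 3 sensors, 1 transducer, 1 feedback inhibitor and 1 of the paralogs, neighbors and partners, beside 3.73% of all genes. IFIT3, HERC5 and TRIM22, an RNA-binding antiviral protein, the ligase for ISG15 and a restriction factor, had the highest values with log2 fold changes of 2.64 (SE 0.50), 2.61 (SE 0.49) and 2.59 (SE 0.45) and edgeR adjusted p of 0.107, 0.10 and 0.0932. IFIT3 had 402, 68 and 327 counts in the control libraries and 1890, 2031 and 860 in the knockdown, low in sh-NC replicate 2 and lower in library C as for DDX60. In 29 of the 44 all shRBM10 libraries lay above all sh-NC libraries, beside 13.8% of all genes. After GC correction 14 of the 44 were past the limit and higher, beside 2.97%.

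**Figure D5:**
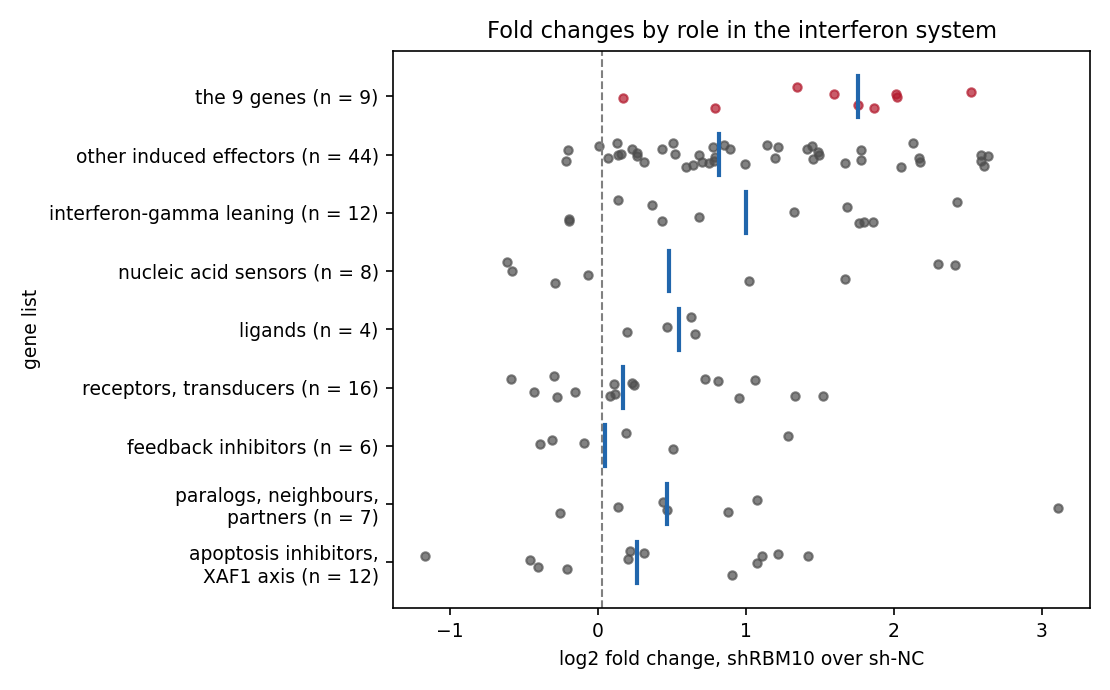
log2 fold change of shRBM10 over sh-NC for each tested gene (points, spread vertically at random within a list) in the 9 genes and in 8 lists of the interferon system and of apoptosis inhibitors, with the median of each list as a blue line and the median of all genes, 0.03, as a dashed line. The 9 genes have a median of 1.76, the other induced effectors 0.82, the interferon-gamma leaning targets 1.00 and the receptors and transducers 0.17.

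Of the 7 paralogs, neighbors and partners 2, RSAD2 and XIAP, were past the limit and higher, and 1 after GC correction. Of 17 genes listed as leaning to interferon-gamma, 12 had enough counts to be tested. Among these, 10 were above 0 and 2 below, 6 were past the limit and higher, and the median was 1.00. After GC correction 5 were past it and higher, beside 2.97% of all genes. The 3 genes named next were picked for the largest change at a mean of at least 50 counts, so they do not stand for the list. The chemokine CXCL10 had 35, 48 and 36 counts in the control libraries and 154, 175 and 125 in the knockdown, a log2 fold change of 1.80 (SE 0.37, edgeR adjusted p = 0.118). The guanylate-binding proteins GBP3 and GBP2 had values of 1.68 (SE 0.43) and 1.32 (SE 0.32). The sensors were divided, with 4 of 8 above 0 and the same 4 past the limit. After GC correction 3 were past it and higher and 1 past it and lower. DDX58 (RIG-I), IFIH1 (MDA5) and TLR3, which all detect viral RNA, had log2 fold changes of 2.41 (SE 0.50), 2.30 (SE 0.50) and 1.67 (SE 0.41), with edgeR adjusted p of 0.120, 0.128 and 0.142. Each shRBM10 library lay above each sh-NC library in all 3, as in 13.8% of all genes. In 3 other sensors each shRBM10 library lay below each sh-NC library, as in 16.2% of all genes.

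The ligands were few. Of 21 interferon genes 8 were in the table and 4 had enough counts to be tested, IFNB1, IFNL1, IFNL2 and IFNL3. All 4 were above 0 with a median log2 fold change of 0.55, and 0 were past the limit. IFNB1 (interferon-beta) had 69, 107 and 69 counts in the control libraries and 129, 128 and 122 in the knockdown. After normalization the groups overlapped, and the log2 fold change was 0.47 (SE 0.38, edgeR adjusted p = 0.431). IFNL1 had a log2 fold change of 0.20 (SE 0.31). IFNL2 and IFNL3 had 0.63 (SE 0.29) and 0.66 (SE 0.30), with edgeR adjusted p of 0.216 and 0.208. In both every shRBM10 library lay above every sh-NC library, as in 13.8% of all genes. They are near-identical copies, so their separate counts are uncertain.

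The receptors and transducers, 16 genes, had a median log2 fold change of 0.17, with 11 above 0 and 2 past the limit and higher. JAK1 and IFNAR1, a receptor chain for type I interferon, had log2 fold changes of 1.06 (SE 0.38) and 0.95 (SE 0.32), with edgeR adjusted p of 0.169 and 0.162. Both were lowest in sh-NC replicate 2. JAK1 had 1392, 347 and 1467 counts in the control libraries and 2515, 2351 and 1632 in the knockdown. STAT2 had 0.72 (SE 0.22), but IRF9 had 0.11 (SE 0.24) and IRF7, which amplifies interferon production, 0.25 (SE 0.29), both with overlapping groups. Among the 6 feedback inhibitors 1 (PIAS1) was past the limit and higher, and 0 after GC correction. USP18, itself an interferon target that blocks the receptor, had 0.19 (SE 0.31), SOCS1 had -0.31 (SE 0.40) and SOCS3 -0.39 (SE 0.28), while PTPN2 had 0.51 (SE 0.27) and PIAS1 1.28 (SE 0.40, edgeR adjusted p = 0.155).

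The promoter letters can be set beside these lists. ISRE letters were present in 23 of 37 other induced effectors with a window (62.2%), in 6 of 12 interferon-gamma leaning targets, in 4 of 6 sensors and in 0 of 12 receptors and transducers. Among the 9 genes, those with ISRE letters had log2 fold changes from 0.79 (IFI6) to 2.02 (IFI44), and those without from 0.17 (IFI35) to 2.52 (XAF1). The 2 ranges overlap.

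The 5 genes outside the 9 whose levels over the 6 libraries were most like the median of the 9 were found among 11063 genes with a mean of at least 50 counts, by the root mean square difference of log2 levels. They were RGL1 (0.14), FMO5 (0.20), SLC2A12 (0.23), MX2 (0.25) and SPP1 (0.25). MX2 is an interferon-induced antiviral GTPase, RGL1 a regulator of Ral GTPases, FMO5 a flavin monooxygenase, SLC2A12 a glucose transporter and SPP1 the secreted protein osteopontin. MX2 had 181, 143 and 155 counts in the control libraries and 432, 510 and 484 in the knockdown, and the 3 knockdown libraries were close to each other. SPP1, the most abundant of the 5, had 1365, 1231 and 1434 counts in the control libraries and 3862, 4125 and 3272 in the knockdown. The measure says only that these profiles lie near the median of the 9 over 6 libraries.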

How the data were processed

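RNA of 3 sh-NC and 3 shRBM10 PC9 samples was sequenced by BGI-Tech. The authors deposited estimated counts and TPM per gene and estimated counts per RefSeq transcript. The aligner and counting tool are not given in the sources used here, and the submitters' processing notes name hg38. Of the gene counts 87.5% were whole (transcripts 41.1%, tolerance 1e-09), and counts were rounded. Low counts were removed with filterByExpr, libraries scaled by TMM, and differences tested by the quasi-likelihood functions glmQLFit and glmQLFTest of edgeR 4.0.16 in R 4.3.3, with Benjamini-Hochberg adjustment over 12620 genes. The edgeR procedure was tested on simulated data with a common dispersion for all genes and no trend with GC. That test does not cover a library that stands apart in its gene levels, such as sh-NC replicate 2. Alternatives were DESeq2 1.42.0, limma-voom (limma 3.58.1), other normalizations and filters, GC correction (loess, span 0.3, GC content of 12559 genes) and leaving out libraries. The 7 columns of group means other than TPM of shRBM10 in the gene table and 32 columns of per-sample values in both tables were not used.

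The 9 genes and all lists were chosen with earlier results of these data known. Also named are RBM10, the paralogs, neighbors and partners, up to 3 genes per other list with the largest absolute log2 fold change at a mean of at least 50 counts, fixed pathway genes (STAT2, IRF9, IRF7, IFNB1, IFNL1, USP18 and SOCS1) and the 5 nearest profiles. A gene that this rule names is not reported here. CSF1R, PTPRC, LYZ, COL1A1, COL1A2, COL3A1, CDH5 and VWF were named after their values were seen, and the counts of EGFR were given on the same ground.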

Additional observations from a re-analysis of the deposited data

How the results depend on the processing

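Over 16 alternatives all 9 genes kept a log2 fold change above 0. Their median moved to 1.37 after GC correction and to 1.33 after correction for GC and length, which was chosen after seeing the data, and the mean of the library medians in shRBM10 went from 1.67 to 1.39 in both. Leaving out 1 library each kept the median between 1.60 and 1.81, and the mean of the library medians between 1.52 and 1.80. The genes called over all genes tested were 2 with all libraries and 0 with library size only, 31 without a filter on low counts, 573 with DESeq2 and 0 to 23 without 1 library each. They were 1862 without sh-NC replicate 2 and shRBM10 library C together, an alternative chosen after seeing the data. The genes past the unadjusted limit were 1465 with all libraries, 613 after GC correction, 614 after GC and length correction and 574 to 2143 without 1 library each. Of these 1272, 375, 361 and 424 to 1722 were higher. RBM10 passed the adjusted limit in edgeR without sh-NC replicate 2 (-1.42), in DESeq2 (-1.26) and without sh-NC replicate 2 and library C (-1.54), against -1.24 with all libraries. Without 1 library each it ranged from -1.43 to -1.17. The causes of these differences were not tested. No paired analysis was possible because only 1 shRBM10 column could be matched to a replicate number. The planned comparison of protein sequences was not run, since no protein sequences were used here.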
